A study of Mus musculus with 2 samples.

Results

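Complement, coagulation and fibrinolysis genes were followed across the cells of the mouse aorta. The set holds 34 of the 32285 genes counted, chosen as a fixed list of gene symbols: 20 genes of the complement system and 14 of coagulation and clot breakdown. The cells came from 2 samples of ApoE-/- mice at 20 weeks, 1 labelled HFD and 1 labelled MSC_ITGB3, and the series text describes mice fed HFD with or without MSC_ITGB3. ApoE-/- mice lack apolipoprotein E, clear remnant lipoproteins poorly and develop atherosclerotic plaques, so both groups carry the same deletion. The labels do not spell out MSC_ITGB3, nor do they say how many aortas were pooled. Cells were profiled with the Chromium 3' v3 kit, in which each captured transcript carries a unique molecular identifier (UMI) and only its 3' end is read.

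The counts come as 2 libraries that no label, header or name ties to a sample. They are called library 1 and library 2, stand for no treatment, and were not used to compare HFD with MSC_ITGB3. There are no replicates and no p-values. Intervals are exact at the 95% level and cover counting error only, and a difference between the libraries cannot be told apart from differences between animals, dissections or treatments. Levels are given as CPM, the share of a gene in all UMIs of a class on the usual CPM scale, and where 2 levels stand together the first is from library 1.

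Complement is a cascade of plasma and cell surface proteins that tags particles, lyses membranes and calls in leukocytes. Its recognition molecule C1q carries the proteases C1r and C1s, which cleave C4 and C2 so that C3 can be activated, while factor B and properdin amplify the alternative pathway. In coagulation, tissue factor on cells outside the blood binds factor VII and activates factor X, and the endothelium limits clotting through thrombomodulin, the protein C receptor, protein S and tissue factor pathway inhibitor. Clots are dissolved by plasmin, which the activators Plat and Plau release. The liver makes most of these plasma proteins, and macrophages, fibroblasts and endothelium make some of them locally.

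Barcodes with at least 3000 UMIs and at most 20% mitochondrial UMIs were kept, 6332 in library 1 and 6540 in library 2, with median depths of 8746 and 6031 UMIs. Marker genes, none of them among the 34, placed 77.6% and 77.2% of these in a cell class, and 17 barcode sequences occur in both libraries. The 7 classes with at least 50 barcodes in each library were contractile smooth muscle-like (985 and 1543 barcodes), modulated smooth muscle-like (545 and 1002), fibroblast-like (1560 and 1326), chondrocyte-like (54 and 430), endothelial-like (937 and 200), macrophage-like (354 and 312) and T cell-like (167 and 116). The first 2 are called contractile and modulated barcodes from here on. The modulated smooth muscle name is the weakest, since 3 of its 6 markers reached both 20 CPM and 2-fold the level of all other kept barcodes. Its gate also required a share of fibroblast marker UMIs beside smooth muscle ones. The part of this rule, or of droplets with 2 cells, in its levels of fibroblast genes was not tested. Hepatocyte markers summed to 17.7 and 10.2 CPM over all kept barcodes, with Serpina1a at 0 and the other 5 of 6 detected, and platelet markers to 40.1 and 29.0 CPM, with all 6 detected. No barcode was placed in a hepatocyte, platelet, adipocyte, mast cell or cardiomyocyte class.

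Several of the genes are neighbours in the genome (GENCODE vM21, GRCm38). C1qa (chr4:136895917-136898803), C1qc (chr4:136889804-136893065) and C1qb (chr4:136880129-136886187) lie in a row on the minus strand, with gaps of 2851 and 3616 bases. C1ra and C1s1 face each other on chromosome 6 with 6901 bases between them, C2 ends 85 bases from Cfb on chromosome 17, and F10 starts 1498 bases beyond the end of F7 on the same strand of chromosome 8. Among the 32235 of 32285 counted genes matched in this annotation, none overlaps a member on the member's own strand. The overlaps of 5 members (C1s1, C2, Cd55, Masp1 and F5) are with genes on the other strand.

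Promoter sequences, 250 bases before to 50 after a start site, were found in RefSeq (GRCm38.p6) for 23 of the 34 genes. The box bound by PU.1, a transcription factor of myeloid cells, was searched as GAGGAA on both strands and appears as GAGGAA or TTCCTC. It is present in 28.3% of 32851 promoters in the same table, in 9 of the 23 members and in 4 of the 7 members with a promoter entry whose highest level was in macrophage-like barcodes. The promoters of C1qb (chr4:136886151-136886450, minus strand), C1qc (chr4:136892865-136893164, minus strand) and Cfp (chrX:20931506-20931805, minus strand) are shown because these genes led in macrophage-like barcodes in both libraries and hold the box. C5ar1 and C3ar1 also led there, and their windows, not shown, hold none. Those of F7 (chr8:13025784-13026083) and F10 (chr8:13037058-13037357), both on the plus strand, are shown because the 2 are neighbours and both led in macrophage-like barcodes. Capitals mark the box.
C1qb: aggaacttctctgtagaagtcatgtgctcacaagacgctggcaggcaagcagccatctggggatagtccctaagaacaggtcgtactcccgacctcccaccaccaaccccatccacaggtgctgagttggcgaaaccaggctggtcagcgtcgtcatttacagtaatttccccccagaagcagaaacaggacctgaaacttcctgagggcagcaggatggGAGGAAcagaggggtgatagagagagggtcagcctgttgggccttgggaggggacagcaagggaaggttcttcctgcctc
C1qc: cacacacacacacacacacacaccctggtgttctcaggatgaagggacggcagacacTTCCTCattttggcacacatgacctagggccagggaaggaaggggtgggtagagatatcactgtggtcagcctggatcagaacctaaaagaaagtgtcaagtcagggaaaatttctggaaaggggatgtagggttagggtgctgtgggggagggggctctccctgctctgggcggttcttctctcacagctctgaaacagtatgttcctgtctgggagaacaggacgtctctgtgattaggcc
Cfp: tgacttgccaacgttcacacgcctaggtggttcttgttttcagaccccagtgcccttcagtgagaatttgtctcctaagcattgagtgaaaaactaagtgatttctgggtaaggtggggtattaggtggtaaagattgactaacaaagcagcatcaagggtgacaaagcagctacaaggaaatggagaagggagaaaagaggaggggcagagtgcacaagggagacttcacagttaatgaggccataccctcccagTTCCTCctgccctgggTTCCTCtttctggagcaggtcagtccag
F7: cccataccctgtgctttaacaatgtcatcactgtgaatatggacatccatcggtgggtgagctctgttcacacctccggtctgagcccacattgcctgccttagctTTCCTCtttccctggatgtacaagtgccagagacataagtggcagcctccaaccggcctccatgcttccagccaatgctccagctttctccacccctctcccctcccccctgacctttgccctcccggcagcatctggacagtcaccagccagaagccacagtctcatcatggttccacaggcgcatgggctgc
F10: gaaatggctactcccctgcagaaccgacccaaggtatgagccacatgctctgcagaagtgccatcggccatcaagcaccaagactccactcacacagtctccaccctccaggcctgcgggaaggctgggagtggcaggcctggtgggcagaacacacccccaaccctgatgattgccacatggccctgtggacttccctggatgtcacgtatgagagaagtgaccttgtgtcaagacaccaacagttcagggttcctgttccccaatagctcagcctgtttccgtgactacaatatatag
Cfp holds 2 matches, C1qb, C1qc and F7 hold 1 each, and the F10 window holds none. A match describes the letters only.

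The genes divided between a few cell classes. A mean of at least 20 CPM over both libraries in some class was reached by 29 of the 34, and 27 of these had the same leading class, the one with the highest level, in both libraries. Over all 9317 genes past the same filter, 75.3% had the same leading class in both. The lead over the next class was at least 2-fold in both libraries for 18 members, against 19.3% of all genes. Fibroblast-like barcodes led for 11 members, macrophage-like for 9, endothelial-like for 5, and contractile and chondrocyte-like for 1 each. Of all genes past the filter, 5.20% were led by fibroblast-like, 13.4% by macrophage-like and 15.3% by endothelial-like barcodes in both libraries. The shares were 11.3% for contractile, 7.42% for chondrocyte-like, 21.2% for T cell-like and 1.60% for modulated barcodes, the last 2 leading for no member in both libraries. The endothelial-like count, 5 among the 29, lies near the share of that class. F5 and Plaur changed their leading class between the libraries.

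**Figure D1:**
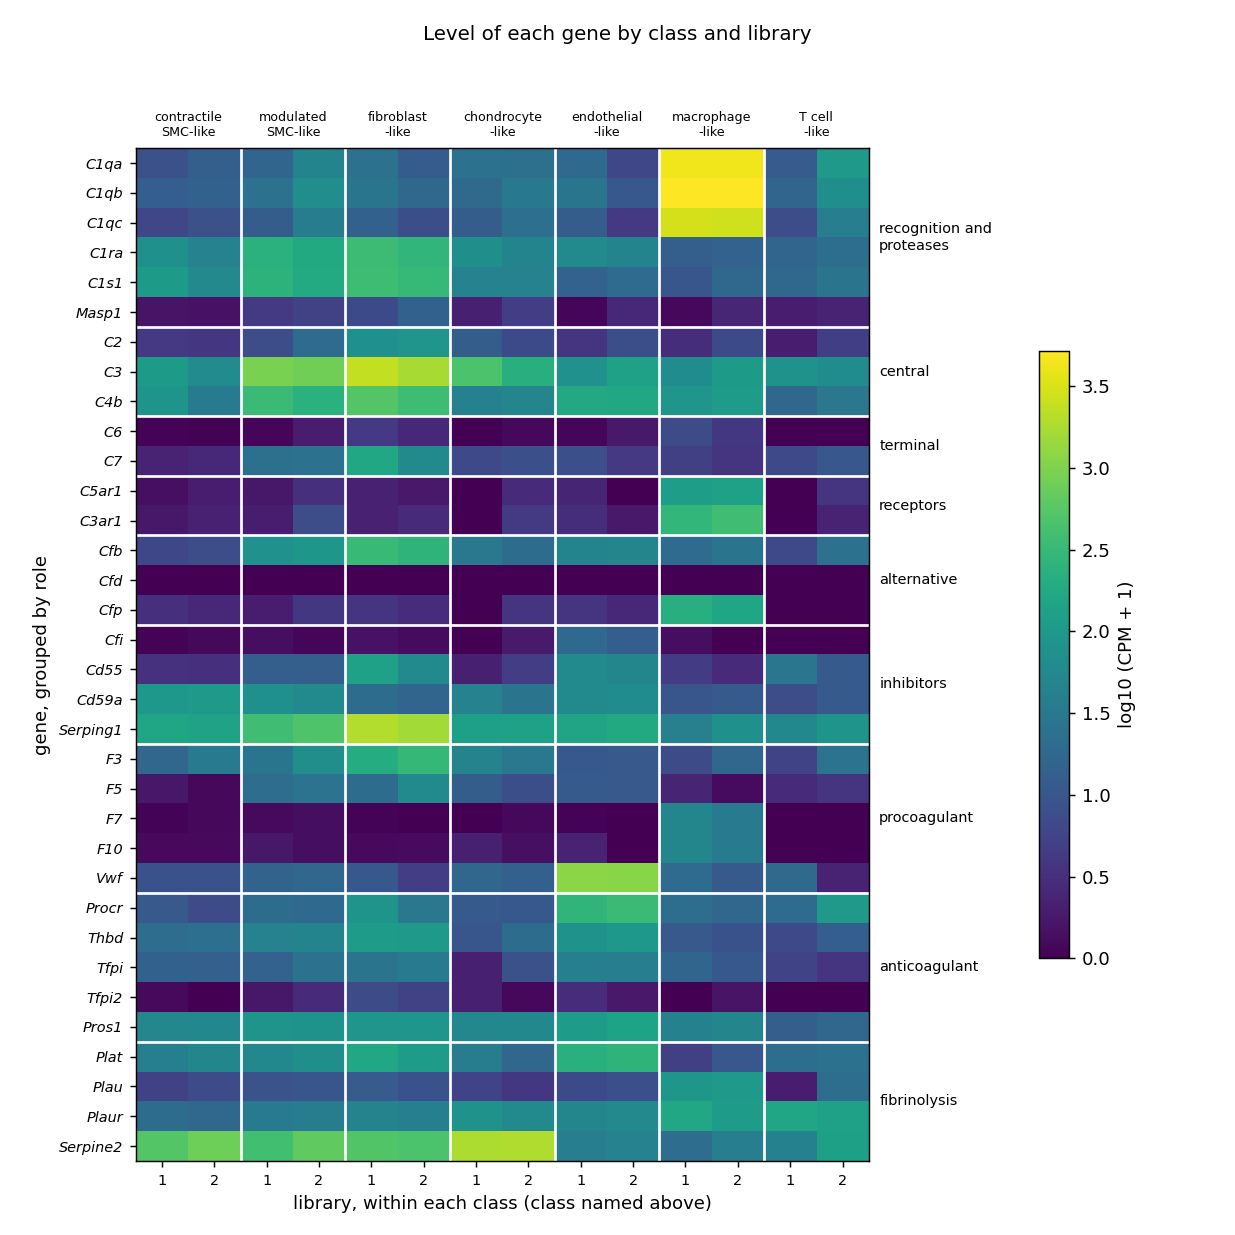
Level of each of the 34 genes, in rows grouped by role, in the 7 main classes, with library 1 and library 2 side by side. Colour is log10 of CPM plus 1. The C1q chains, both anaphylatoxin receptors, Cfp, F7 and F10 are bright in macrophage-like columns, C3, Serping1 and their neighbours in fibroblast-like columns, and Vwf in endothelial-like columns.

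The 3 chains of C1q, which together form the recognition molecule of the classical pathway, were the macrophage genes of the set. C1qa stood at 4259 CPM (4205 to 4314) in library 1 and 4332 CPM (4262 to 4403) in library 2. C1qb stood at 5196 CPM (5136 to 5257) and 5179 CPM (5103 to 5257). C1qc stood at 2960 CPM (2914 to 3006) and 2801 CPM (2745 to 2858). Every one of these levels was at least 44.35-fold above the next class, and the libraries were close to each other. After each barcode was thinned to 3000 UMIs, all 3 chains were seen in 297 of 354 (83.9%) and 275 of 312 (88.1%) macrophage-like barcodes, and none in 29 and 17. In T cell-like barcodes, which should lack these genes, all 3 were seen in 1 of 167 and 2 of 116.

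The proteases that C1q carries came from other cells. C1ra was highest in fibroblast-like barcodes, at 346 CPM (339 to 354) and 280 CPM (271 to 288), then in modulated barcodes at 236 and 182 CPM, and was at 12.5 and 13.9 CPM in macrophage-like barcodes. It was at 73.0 and 44.0 CPM in contractile, 71.1 and 47.1 CPM in chondrocyte-like and 56.1 and 46.1 CPM in endothelial-like barcodes. C1s1 was also highest in fibroblast-like barcodes, at 366 CPM (358 to 374) and 303 CPM (294 to 312), then in modulated barcodes at 249 and 188 CPM and in contractile barcodes at 104 and 55.0 CPM. It was at 13.9 and 18.7 CPM in endothelial-like and 8.97 and 16.6 CPM in macrophage-like barcodes. Fibroblast-like levels exceeded modulated levels by 1.47-fold and 1.54-fold for C1ra and by 1.47-fold and 1.61-fold for C1s1. Masp1, the related protease of the lectin pathway, stayed under the filter, with its highest levels of 5.73 and 13.1 CPM in fibroblast-like barcodes. The near copies C1rb and C1s2 gave few UMIs beside these genes.

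C3, the protein on which all complement pathways meet, stood at 2372 CPM (2351 to 2393) and 1674 CPM (1654 to 1695) in fibroblast-like barcodes. Modulated smooth muscle-like barcodes followed with 932 and 814 CPM and chondrocyte-like barcodes with 458 and 223 CPM. Contractile smooth muscle-like barcodes had 104 and 60.0 CPM. In endothelial-like, macrophage-like and T cell-like barcodes C3 ranged from 62.5 to 131 CPM. Low-count droplets of 10 to 100 UMIs, which hold mostly free RNA, had 837 and 1003 CPM of C3, and smooth muscle markers in these 3 classes stood at 5.13% to 19.6% of their free RNA level. Outside fibroblast-like barcodes, only the modulated 932 CPM exceeded the droplet level of its library. The part of free RNA in these C3 levels was not tested.

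C4b, the fourth component cleaved by C1s, was at 525 CPM (515 to 535) and 366 CPM (356 to 375) in fibroblast-like and at 345 and 236 CPM in modulated barcodes. Endothelial-like barcodes had 174 CPM (167 to 181) and 170 CPM (155 to 187), macrophage-like barcodes 87.0 and 110 CPM and contractile barcodes 81.8 and 33.0 CPM. C4a, its near copy, gave 35 and 43 UMIs in all kept barcodes, against 21131 and 11833 for C4b. C2, the protease partner of C4b, was at 73.3 CPM (69.7 to 77.0) and 84.8 CPM (80.3 to 89.6) in fibroblast-like barcodes and at most 19.0 CPM in any other main class.

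Of the terminal components, which insert into membranes, C7 was found in fibroblast-like barcodes at 162 CPM (157 to 168) and 58.5 CPM (54.7 to 62.5), and in modulated barcodes at 22.5 and 23.7 CPM. These fibroblast-like levels depend on the weight given to deep barcodes, since a mean over barcodes gave 260 and 96.3 CPM. C6 stayed under the filter, with 105 and 61 UMIs in all kept barcodes.

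Both receptors for the anaphylatoxins, the small fragments released from C3 and C5, were found almost only in macrophage-like barcodes among the main classes. C3ar1 was at 289 CPM (275 to 304) and 377 CPM (357 to 399), and at most 6.62 CPM elsewhere. C5ar1 was at 120 CPM (111 to 129) and 133 CPM (121 to 146), and at most 2.60 CPM elsewhere.

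In the alternative pathway, factor B and properdin were made in different cells. Cfb, the protease factor B, was at 317 CPM (310 to 325) and 263 CPM (255 to 272) in fibroblast-like barcodes, with 74.9 and 91.6 CPM in modulated and 46.2 and 48.5 CPM in endothelial-like barcodes. Cfp, which encodes properdin and stabilises the C3-cleaving enzyme, was at 219 CPM (207 to 232) and 150 CPM (137 to 164) in macrophage-like barcodes and at most 3.00 CPM in the other main classes. Cfd, the factor D that activates factor B and a typical product of adipocytes, had 1 and 3 UMIs in all kept barcodes. Adipocyte markers summed to 48.1 and 56.2 CPM there, with Pck1 at 0 in library 1.

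The inhibitors of complement did not share 1 leading class. Serping1, the inhibitor of C1r and C1s, was at 1939 CPM (1920 to 1958) and 1596 CPM (1575 to 1616) in fibroblast-like barcodes, followed by 374 and 494 CPM in modulated barcodes. In the other 5 classes it ranged from 41.0 to 179 CPM. All levels outside fibroblast-like barcodes, the modulated ones included, were below the 595 and 631 CPM of low-count droplets. Cd55, which disperses the C3-cleaving enzymes on cell surfaces, was at 134 CPM (130 to 139) and 57.3 CPM (53.6 to 61.3) in fibroblast-like barcodes and at 56.9 CPM (52.9 to 61.0) and 49.7 CPM (41.4 to 59.2) in endothelial-like barcodes, so that in library 2 the 2 classes overlapped. Cd59a, the surface inhibitor of the membrane attack complex, was at 95.7 CPM (90.2 to 101) and 96.98 CPM (92.1 to 102) in contractile barcodes, at 73.3 and 59.2 CPM in modulated and at 58.3 and 62.8 CPM in endothelial-like barcodes. Its near copy Cd59b gave 328 and 283 UMIs, against 3700 and 3001 for Cd59a. Cfi, the protease factor I, was under the filter, yet was found almost only in endothelial-like barcodes, at 17.4 and 12.3 CPM and at most 0.87 CPM in any other main class.

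Among procoagulant genes, tissue factor was a fibroblast gene. F3 was at 200 CPM (194 to 206) and 293 CPM (285 to 302) in fibroblast-like barcodes, at 26.7 and 67.8 CPM in modulated and at 16.0 and 34.3 CPM in contractile ones. Endothelial-like barcodes had 9.47 and 9.94 CPM. The levels in the other 6 main classes were all below the 86.6 and 136 CPM of low-count droplets. A mean over barcodes gave 318 CPM of F3 in fibroblast-like barcodes of library 1.

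Among the main classes, the proteases that work with tissue factor were highest in macrophage-like barcodes. F7, which tissue factor binds, was at 50.3 CPM (44.6 to 56.7) and 34.1 CPM (28.1 to 40.9) in macrophage-like barcodes and at most 0.37 CPM elsewhere. Before thinning, 54 of 354 and 25 of 312 barcodes had an F7 UMI, and the richest barcode of each library held 12.4% and 18.3% of the F7 UMIs. A mean over barcodes gave 18.3 CPM in library 2. F10, the next protease of the cascade, was at 50.5 CPM (44.7 to 56.9) and 32.6 CPM (26.8 to 39.3) in macrophage-like barcodes, and stricter marker gates gave 21.1 CPM in library 2. It was higher in the few monocyte-like barcodes, at 229 and 132 CPM. F5, the cofactor of activated factor X, was at 19.7 and 56.3 CPM in fibroblast-like and 20.1 and 25.1 CPM in modulated barcodes. Vwf, the platelet adhesion protein of the vessel lining, was at 1184 CPM (1166 to 1202) and 1124 CPM (1082 to 1166) in endothelial-like barcodes, at least 63.4-fold above the next class.

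The anticoagulant genes were shared between endothelium and fibroblasts. Procr, the protein C receptor, was at 265 CPM (257 to 274) and 340 CPM (317 to 363) in endothelial-like barcodes and at 81.7 and 29.2 CPM in fibroblast-like barcodes. Thbd, thrombomodulin, was at 113 CPM (109 to 118) and 96.6 CPM (91.7 to 102) in fibroblast-like and at 78.5 CPM (73.9 to 83.4) and 96.2 CPM (84.5 to 109) in endothelial-like barcodes. The 2 classes thus differed beyond counting error in library 1 and overlapped in library 2. Pros1, protein S, was at 107 CPM (102 to 113) and 142 CPM (127 to 157) in endothelial-like barcodes and at 85.0 and 89.5 CPM in fibroblast-like barcodes, at 82.0 and 81.2 CPM in modulated and 52.0 and 53.4 CPM in contractile barcodes, and at 50.8 and 53.0 CPM in chondrocyte-like barcodes. Tfpi, the inhibitor of the tissue factor complex, was at 39.3 and 37.8 CPM in endothelial-like and at 26.2 and 32.2 CPM in fibroblast-like barcodes. In library 2 the interval of the ratio of these Tfpi levels, 0.931 to 1.46, includes no difference. Tfpi2 stayed under the filter.

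Plat, the tissue plasminogen activator, was at 229 CPM (221 to 237) and 256 CPM (237 to 277) in endothelial-like and at 165 and 113 CPM in fibroblast-like barcodes, with 53.4 and 70.2 CPM in modulated barcodes. Plau, the urokinase activator, was at 92.3 CPM (84.4 to 101) and 101 CPM (90.3 to 112) in macrophage-like barcodes, and 1 barcode held 93.8% of the 16 UMIs behind the 20.8 CPM of T cell-like barcodes in library 2. Its receptor Plaur was at 167 CPM (156 to 178) and 108 CPM (97.1 to 120) in macrophage-like and at 157 and 132 CPM in T cell-like barcodes, which did not differ beyond counting error in either library, and at 80.1 and 57.6 CPM in chondrocyte-like and 49.8 and 54.5 CPM in endothelial-like barcodes. Serpine2, an inhibitor of thrombin and plasminogen activators, was at 1802 CPM (1715 to 1893) and 1864 CPM (1825 to 1904) in chondrocyte-like barcodes. Levels of 528 and 782 CPM were found in contractile and 393 and 650 CPM in modulated barcodes, and fibroblast-like barcodes had 516 and 453 CPM.

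Summed over the 20 complement genes, macrophage-like barcodes had 13300 and 13340 CPM and fibroblast-like barcodes 6333 and 4751 CPM. The 14 coagulation and fibrinolysis genes summed to 2067 and 2080 CPM in chondrocyte-like barcodes, most of it Serpine2, and to 2020 and 2121 CPM in endothelial-like barcodes, most of it Vwf, Procr and Plat. These sums count UMIs, not protein.

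**Figure D2:**
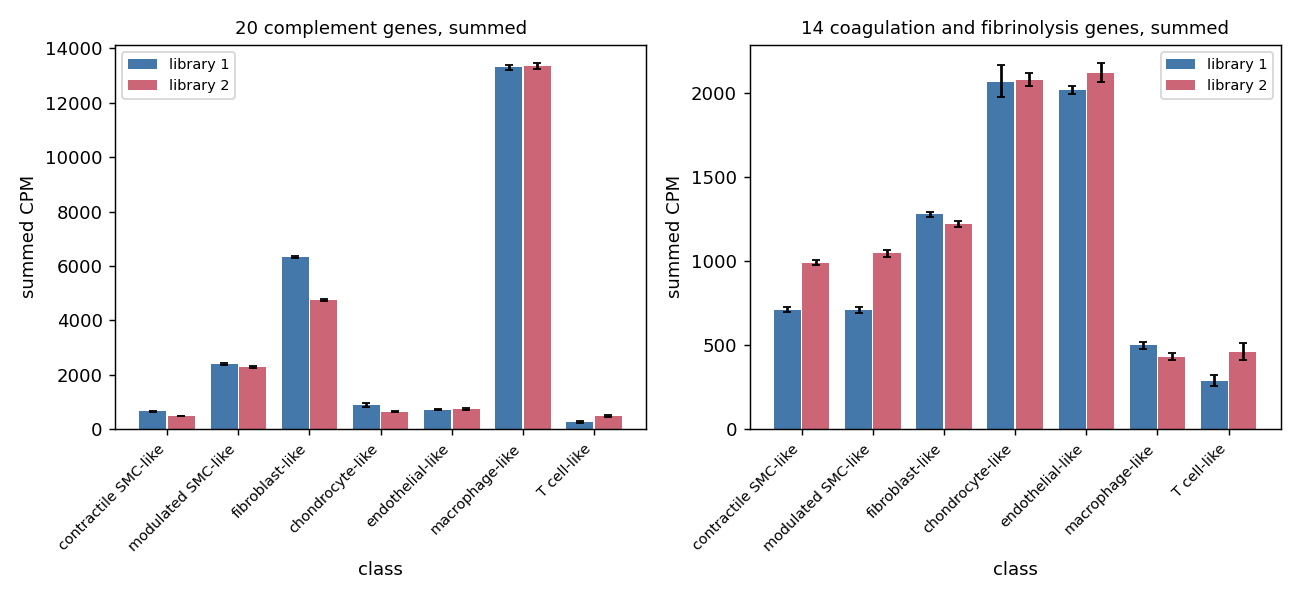
Summed CPM of the complement genes (left) and of the coagulation and fibrinolysis genes (right) in each main class, with bars for library 1 and library 2 and exact 95% counting intervals. Complement UMIs are most frequent in macrophage-like and fibroblast-like barcodes, while the other sum is highest, near 2000 CPM, in chondrocyte-like and endothelial-like barcodes.

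Classes with fewer than 50 barcodes in one of the libraries held further members. Neutrophil-like barcodes (84 and 18) had 1199 and 1390 CPM of Plaur and 348 and 253 CPM of C5ar1. Monocyte-like barcodes (36 and 14) had 229 and 132 CPM of F10, above the level of macrophage-like barcodes in both libraries. Schwann-like barcodes (66 and 36), the glia of nerves in the wall, had 325 and 433 CPM of Cd59a and 259 and 342 CPM of Pros1, in each case more than any main class. Dendritic cell-like barcodes (50 and 19) had 209 and 103 CPM of Cfp.

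Fibroblast-like barcodes were split by 5 marker sets that contain no member, each named by a leading marker: Inmt (339 and 329 barcodes), Opcml (251 and 86), Saa3 (135 and 130), Penk (64 and 82) and Apod (55 and 87). The rest, 716 and 612 barcodes, carried too few markers or were tied between subsets. F3 and Procr were high in different subsets. F3 was at 686 and 875 CPM in the Inmt subset, where 85.6% and 89.1% of barcodes had a UMI, and at 68.6 and 149 CPM in the Opcml subset. Procr ran the other way, with 272 and 119 CPM in the Opcml subset and 10.4 and 12.5 CPM in the Inmt subset. Thbd was at 234 and 306 CPM, Plat at 343 and 331 CPM and Cd55 at 471 and 327 CPM in the Opcml subset, the highest of the 5 subsets in both libraries for each gene. Of the other anticoagulant genes, Tfpi ranged from 16.3 to 51.2 CPM and Pros1 from 67.5 to 101 CPM over the 5 subsets, and Tfpi2 was at most 25.7 CPM.

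Complement genes did not share 1 leading subset. C3 was at 4459 and 3020 CPM in the Apod, 2819 and 3087 CPM in the Opcml and 1706 and 1367 CPM in the Inmt subset. Serping1 was at 3365 and 3054 CPM in the Apod, 2580 and 2497 CPM in the Opcml and 2998 and 2535 CPM in the Inmt subset. C4b was highest in the Opcml subset, at 796 and 794 CPM, followed by the Apod subset at 744 and 589 CPM, with intervals that overlapped in library 1. C2 was at 165 and 228 CPM in the Apod and 152 CPM in the Inmt subset of both libraries, against 31.4 and 48.0 CPM in the Opcml subset. Cfb was highest in the Apod subset, at 687 and 546 CPM, as were C1s1, at 696 and 684 CPM, and C1ra, at 555 and 435 CPM, the last with an interval in library 2 that overlapped that of the Opcml subset. C7 was highest in the Inmt subset, at 280 and 113 CPM, followed by the Apod subset at 246 and 107 CPM, with intervals that overlapped in both libraries. The Penk subset was lowest for C3, at 781 and 833 CPM, and for Serping1, at 248 and 310 CPM.

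F5 and Serpine2 marked the remaining subsets. F5 was at 44.5 and 82.0 CPM in the Saa3 and at 45.3 and 191 CPM in the Penk subset, and at most 6.41 CPM in the other 3. In the Penk subset of library 2, 38 of 82 barcodes had an F5 UMI and 1 barcode held 25.5% of them. Serpine2 was at 1051 and 735 CPM in the Saa3 and at 1045 and 605 CPM in the Penk subset, against 49.9 to 264 CPM in the other 3, and 1 barcode held 48.1% of the Serpine2 UMIs of the Apod subset in library 2.

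**Figure D3:**
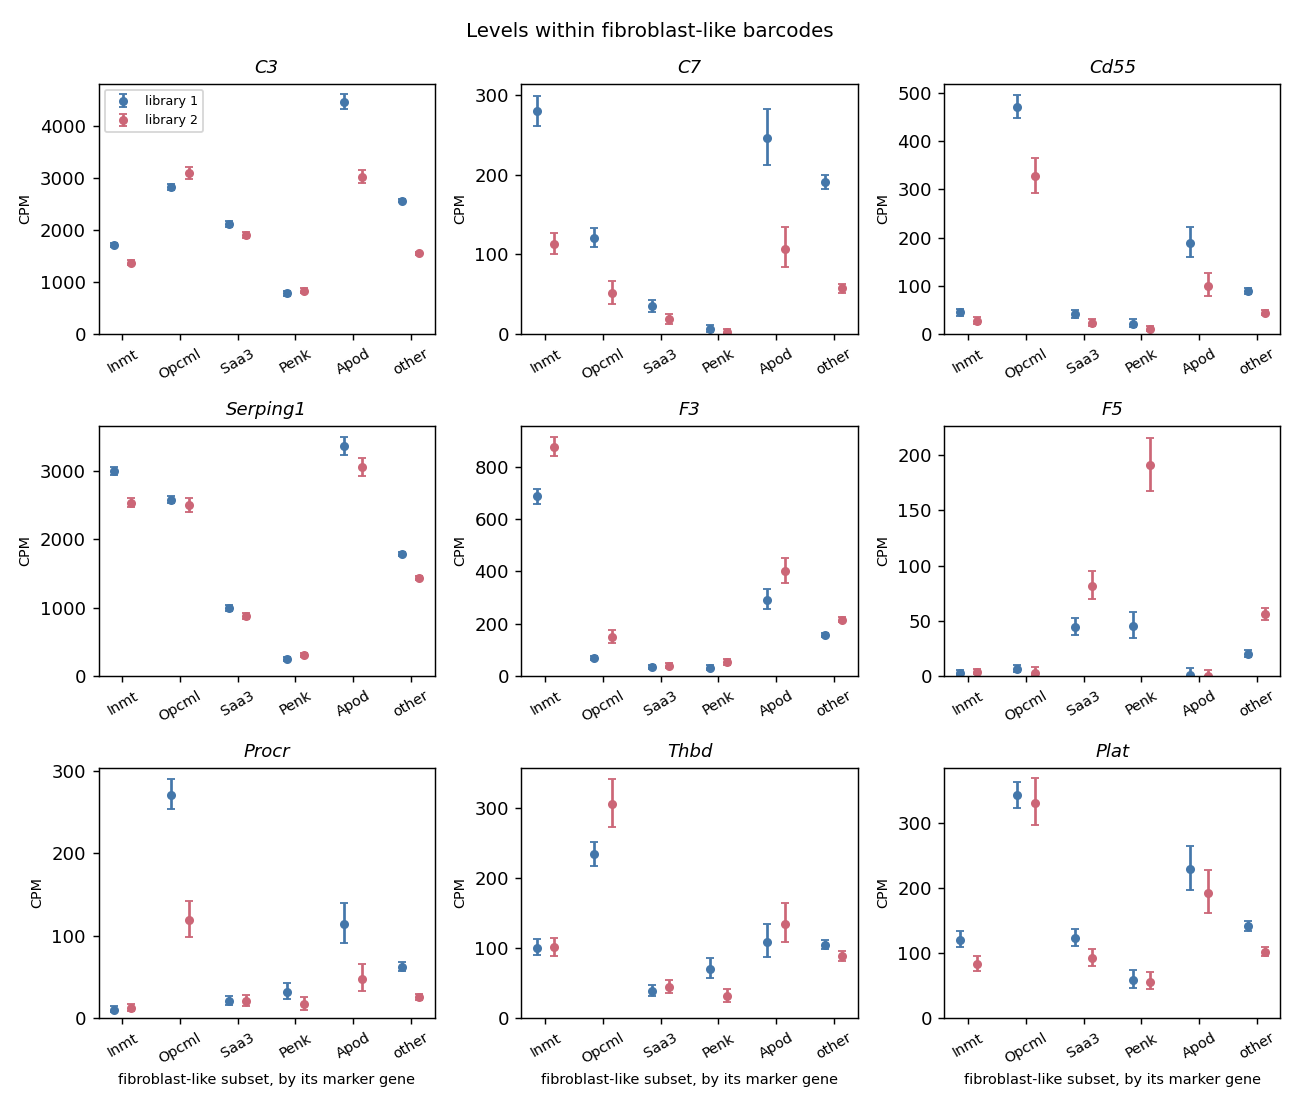
CPM of 9 members in the 5 fibroblast-like subsets and the remaining fibroblast-like barcodes, with a point for each library and exact 95% counting intervals. F3 is highest in the Inmt subset, and Cd55, Procr, Thbd and Plat in the Opcml subset. F5 reached 191 CPM in the Penk subset of library 2.

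Within macrophage-like barcodes, F7 was at 99.5 and 128 CPM in the lipid-associated subset (88 and 37 barcodes) and at 25.9 and 11.7 CPM in the subset with Cd72 and MHC class II genes (160 and 185 barcodes). C5ar1 was lower in the lipid-associated subset, at 53.6 and 28.9 CPM, than in the Cd72 subset, at 167 and 135 CPM. Resident macrophage-like barcodes numbered 18 and 7, so levels are given for library 1 only. They had 887 CPM of C4b, with a UMI in 14 of the 18 barcodes and 22.6% of the UMIs from 1 of them, 641 CPM of Cfp, 447 CPM of C5ar1 and 207 CPM of Pros1. C6 was at 71.2 CPM there, but from 11 UMIs in 3 barcodes.

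The macrophage-like barcodes without any C1q chain differed from those with all 3 in other members. F10 was at 337 CPM (278 to 405) and 284 CPM (206 to 383) in the 29 and 17 barcodes without a chain, and at 20.0 CPM (16.2 to 24.5) and 13.4 CPM (9.64 to 18.2) in those with all 3. Plaur was at 367 and 357 CPM without a chain and at 140 and 89.1 CPM with all 3. C3ar1 ran the other way, at 97.5 and 72.7 CPM against 310 and 402 CPM. The barcodes without a chain also had 1144 and 2293 CPM of Plac8 and 322 and 1037 CPM of Ly6c2, monocyte genes, which were at or below 12.8 CPM in barcodes with all 3. Within the macrophage-like class these 2 sets were chosen by their C1q UMIs and have no test.

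**Figure D4:**
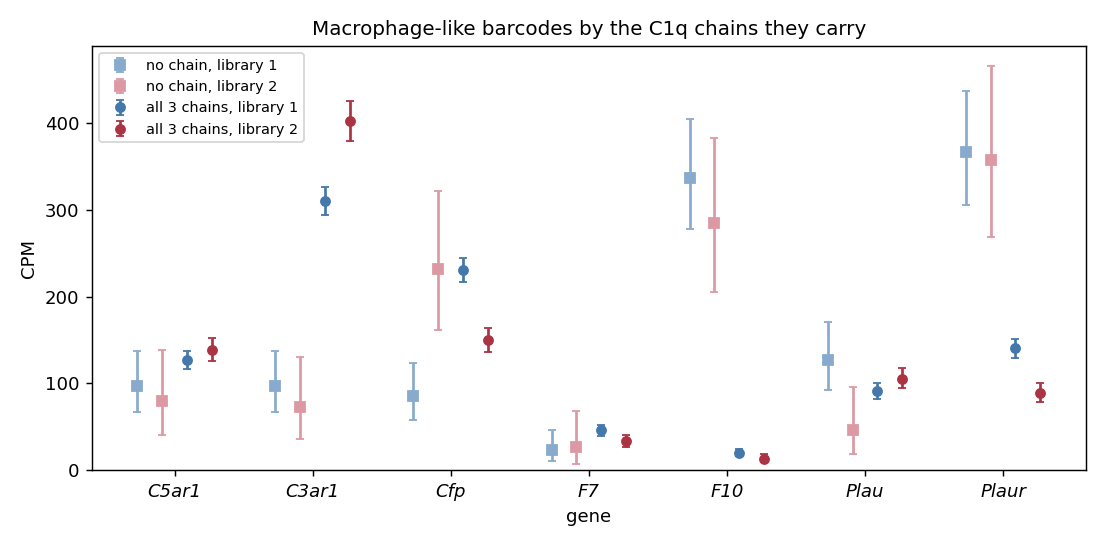
CPM of 7 members in macrophage-like barcodes with no C1q chain (squares) and with all 3 chains (circles) after thinning, for library 1 and library 2, with exact 95% counting intervals. F10 and Plaur are higher without a chain and C3ar1 with all 3 in both libraries, while Cfp differs in direction between them.

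In the endothelium, the Ackr1 subset (192 and 50 barcodes), which carries venular markers, had 297 and 453 CPM of Procr, 251 and 404 CPM of Plat and 26.4 and 19.0 CPM of Cfi. The subset with Gkn3 and Cytl1 (317 and 60 barcodes) had 217 and 240 CPM of Procr and 158 and 121 CPM of Plat. Thbd was ordered the other way, at 56.1 and 80.6 CPM in the Ackr1 and 100 and 131 CPM in the Gkn3 subset. Vwf was at 1050 and 1220 CPM in the Ackr1 and 1314 and 1238 CPM in the Gkn3 subset.

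The libraries were compared within classes as a description, as library 2 over library 1, for members with a mean of at least 20 CPM in the class. At least 1.5-fold apart were 5 of 11 members in contractile barcodes, against 3.95% of all genes past the filter, 5 of 18 in modulated barcodes (5.58%) and 5 of 19 in fibroblast-like barcodes (3.16%). The counts were 6 of 14 in chondrocyte-like (19.8%), 1 of 15 in endothelial-like (4.46%), 5 of 16 in macrophage-like (9.17%) and 8 of 11 in T cell-like barcodes (23%). In all, 35 of 104 pairs of a member and a class were past 1.5-fold, and leaving out the barcode with most UMIs of the gene in each class and library left 25 of 93. The share of all genes was computed for neither of these pooled counts, so they describe the members only.

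In fibroblast-like barcodes, 3 members were lower in library 2 with the whole interval past 1.5-fold. C7 was 2.78-fold lower (2.58 to 2.99), Procr 2.80-fold lower (2.52 to 3.12) and Cd55 2.35-fold lower (2.17 to 2.53). F5 was 2.86-fold higher (2.54 to 3.22). The Opcml subset, rich in Procr and Cd55, held 251 fibroblast-like barcodes of library 1 and 86 of library 2.

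Within the subsets rich in these genes the directions were the same. C7 was lower in library 2 by 2.49-fold (2.17 to 2.85) in the Inmt, 2.37-fold (1.77 to 3.22) in the Opcml and 2.30-fold (1.75 to 3.04) in the Apod subset. Procr was 2.29-fold lower (1.89 to 2.79) in the Opcml and 2.42-fold lower (1.61 to 3.73) in the Apod subset, while the Inmt subset had little of it. Cd55 was 1.44-fold lower (1.28 to 1.62) in the Opcml subset, a smaller ratio than over all fibroblast-like barcodes. F5 was 4.22-fold higher (3.18 to 5.67) in the Penk and 1.84-fold higher (1.46 to 2.34) in the Saa3 subset.

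In contractile barcodes, C4b was 2.48-fold lower (2.23 to 2.77), C1s1 1.89-fold lower (1.73 to 2.07) and C3 1.74-fold lower (1.59 to 1.89) in library 2, and F3 was 2.14-fold higher (1.81 to 2.54). Low-count droplets had 246 and 269 CPM of C4b, 169 and 214 CPM of C1s1 and 837 and 1003 CPM of C3. The contractile levels of these 3 genes in both libraries, and the modulated ones in library 2, were below those of the droplets. The part of free RNA in these levels was not tested. In modulated barcodes, F3 was 2.54-fold higher (2.16 to 2.99) and Serpine2 1.65-fold higher (1.58 to 1.73) in library 2, the latter 1.49-fold with TMM factors. C1qa, C1qb and C1qc were also higher there, at 15.1 and 47.1, 23.9 and 65.4, and 11.7 and 36.3 CPM, and all 3 chains were seen in 2.02% and 4.79% of the barcodes of this class. Its median depth was 8059 and 4296 UMIs, and low-count droplets had 206 and 230 CPM of C1qa. The part of free RNA or of droplets with 2 cells in these C1q levels was not tested.

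Single barcodes carried several of the other differences. T cell-like barcodes of library 2 had 97.7 CPM of C1qa, 70.3 CPM of C1qb and 37.8 CPM of C1qc, and 1 barcode for each gene held 92.0%, 77.8% and 89.7% of the UMIs. Without it C1qa was at 8.65 and 8.59 CPM. Procr, at 97.7 CPM in T cell-like barcodes of library 2, rested on 1 barcode for 96.0% of its UMIs and was at 13.9 and 4.30 CPM without it. The difference in Serpine2, at 41.9 and 128 CPM in T cell-like barcodes, did not rest on 1 barcode. Without the barcode richest in it, the levels were 16.6 and 94.8 CPM, 5.70-fold apart (3.32 to 10.3). Smooth muscle markers in this class stood at 5.41% and 19.6% of their free RNA level.

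C3 in endothelial-like barcodes was at 75.4 and 131 CPM, and at 74.3 and 85.3 CPM without 1 barcode in each library. In chondrocyte-like barcodes C3 was 2.06-fold lower in library 2 (1.83 to 2.31), where library 1 rests on 54 barcodes.

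**Figure D5:**
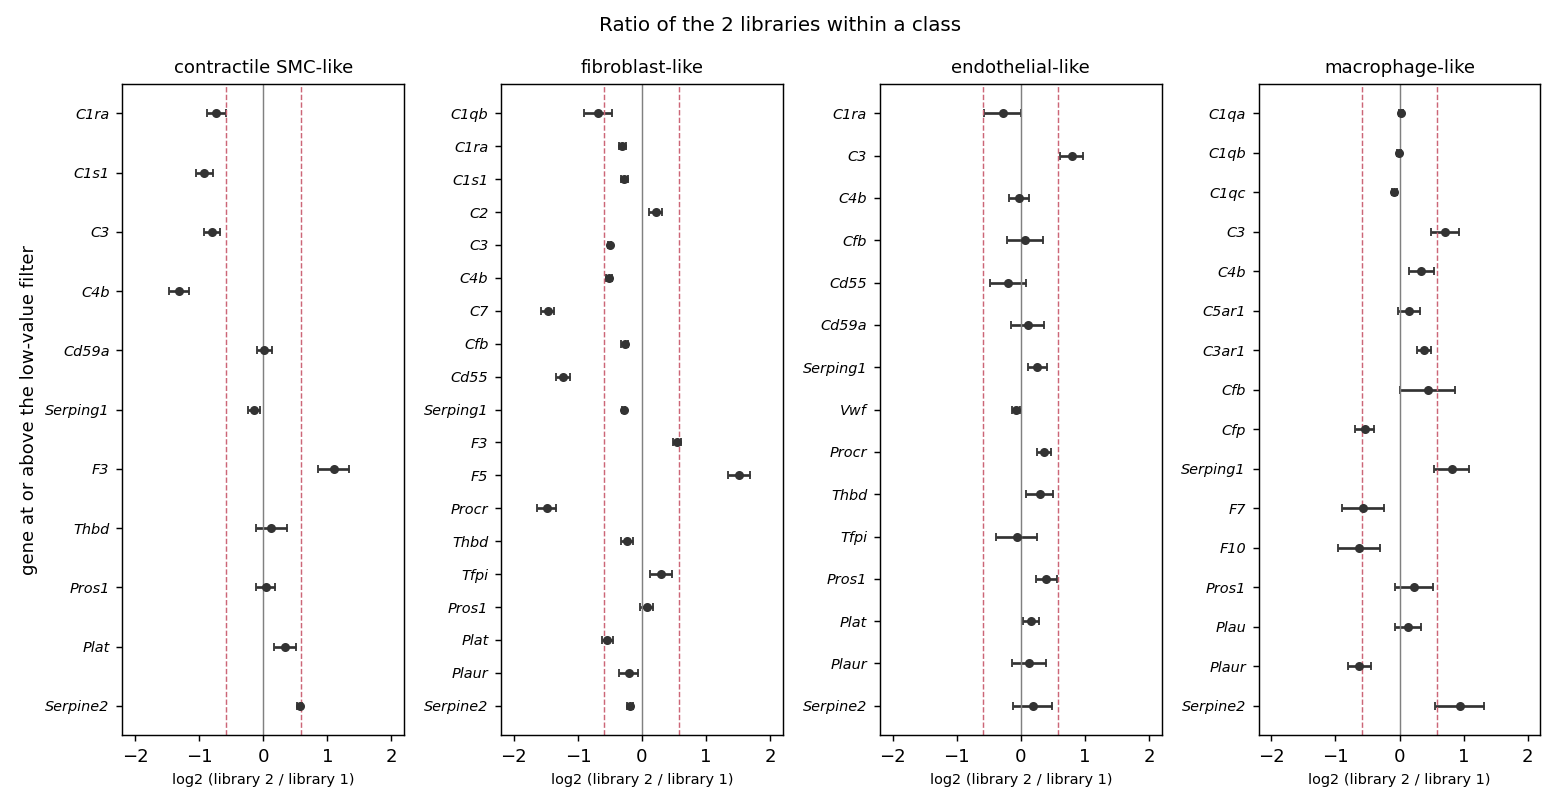
Log2 ratio of library 2 over library 1 for each member past 20 CPM in 4 classes, with exact 95% counting intervals. The solid line marks no difference and the dashed lines 1.5-fold in either direction. C7, Cd55 and Procr lie far to the left and F5 far to the right in fibroblast-like barcodes, and most endothelial-like ratios lie between the dashed lines.

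In macrophage-like barcodes C1qa, C1qb and C1qc had ratios of library 2 over library 1 of 1.02, 0.997 and 0.946. Cfp was 1.46-fold lower (1.32 to 1.62) in library 2 and C3ar1 1.31-fold higher (1.21 to 1.41). The 5 members past 1.5-fold in this class (C3, Serping1, F10, Plaur and Serpine2) all had intervals that reached inside 1.5-fold. F7 was at 50.3 and 34.1 CPM, and past 1.5-fold once the richest barcode of each library was left out, at 44.4 and 28.1 CPM.

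A wider list of 67 other complement, coagulation and fibrinolysis genes was read in the same way. All 67 were counted and 22 passed the filter. Of these, 17 had the same leading class in both libraries, beside 75.3% of all 9317 genes past the filter. Above 100 CPM in some class were 16 genes of the list. Endothelial-like barcodes led for Clu, clusterin, an inhibitor of the membrane attack complex, at 3362 and 2912 CPM. Modulated barcodes followed for Clu with 3176 and 2334 CPM. Endothelial-like barcodes also led for Cd93 at 513 and 457 CPM and Cr1l, a complement regulator, at 116 and 118 CPM.

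Macrophage-like barcodes led for the complement receptor subunits Itgam, at 112 and 103 CPM, and Itgax, at 130 and 147 CPM, and for F13a1, the clot cross-linking enzyme, at 227 and 142 CPM. Gas6, a relative of protein S, was at 629 and 602 CPM in fibroblast-like and at 628 and 452 CPM in modulated barcodes, nearly equal in library 1. Fibroblast-like barcodes led for the scavenger receptor Lrp1 at 841 and 824 CPM and for the collectin Colec12 at 211 and 241 CPM. The thrombin receptor F2r was at 158 and 111 CPM in modulated and at 143 and 109 CPM in endothelial-like barcodes. Thbs1, at 950 and 1040 CPM, was led by modulated barcodes. Vkorc1, Anxa2 and S100a10 had different leading classes in the libraries.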

How the data were processed

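The authors deposited raw, unnormalized UMI counts of genes by barcodes in 1 matrix. Per the file headers it comes from Cell Ranger 6.0.1, and bcl2fastq, Seurat and the build mm10 are further named in the submitters' processing notes. No source used here gives the settings or the annotation. The libraries were separated by barcode suffix and hold 110257209 and 124266676 UMIs.

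Marker gates needed at least 3 markers and 5 times the share in free RNA. Contractile smooth muscle, fibroblast and modulated gates used fixed shares of marker UMIs. Barcodes passing 2 unrelated gates (227 and 159) were left out, and no doublet caller was run. Markers of mural cells were listed, but their gate was dropped after the data were seen, so these cells have no class of their own. UMIs were summed per class and library (Python 3.11.15, numpy 2.4.6, scipy 1.17.1, pandas 2.3.3), with exact Poisson, conditional and Clopper-Pearson intervals at 95%. The calculations were tested on simulated data. Leiden clusters (leidenalg 0.10.2) and other settings were alternatives.

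The members and lists were chosen with earlier results of these data known. All members are accounted for by role. Values by class are given for members above 50 CPM in any class, wider-list genes are named above 100 CPM (2 of them are not reported here), and between libraries members are named where the interval lies past 1.5-fold. Genes outside these rules were named after their values were seen. Positions come from GENCODE vM21, in which all 34 members were matched by identifier.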

Additional observations from a re-analysis of the deposited data

How the results depend on the processing

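Of the filtered members, 24 to 27 of 29 had the same leading class in both libraries under the other depth limits, mitochondrial limit, marker gates, Leiden clusters and free RNA subtraction, and 31 of 33 without a filter on low values. The count of member and class pairs at least 1.5-fold apart between libraries, 35 of 104, became 72 of 167 at a minimum of 1000 UMIs, 22 of 85 at a minimum of 5000 UMIs and 113 of 225 without the filter. The cause was not tested, except that the tested classes and pairs differ in number. Under the other settings it was 24 to 45, with 38 for TMM factors, and the setting that leaves out the richest barcode was chosen after seeing the data. The share of all genes was not computed under any of these other settings, so the counts show no trait of the members.

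Chondrocyte-like barcodes fell under 50 in a library at 5000 UMIs, with stricter gates and in Leiden clusters, so the lead of Serpine2 there could not be read under these settings. Thbd and Tfpi moved between endothelial-like and fibroblast-like in library 2, and Cfp, F10 and Plaur were led by dendritic cell-like clusters under Leiden. With 1000 UMIs, neutrophil-like barcodes led for C5ar1 and Plaur in both libraries, for F5 in library 1 and for C7 and F10 in library 2, and Schwann-like barcodes for Cd59a and Pros1. The gates and clusters agreed for 48.8% of modulated smooth muscle-like and 92.9% of macrophage-like barcodes. Levels under 20 CPM rest on few UMIs in the smaller classes. No paired analysis was possible because the labels give no replicates and neither library can be tied to a sample.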

Other observations

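C1rb and C1s2, near copies of C1ra and C1s1 on the same stretch of chromosome 6 (chr6:124570294-124581171 and chr6:124624625-124636085), were singled out after their values were seen. C1rb gave 21 UMIs in 18 barcodes of library 1 and 373 UMIs in 275 barcodes of library 2, at 0.267 and 6.05 CPM, a 22.6-fold difference (14.6 to 37.0). In fibroblast-like barcodes it was at 0.611 and 10.4 CPM, 17.0-fold apart (9.68 to 32.7), and in modulated smooth muscle-like barcodes it gave 1 and 73 UMIs. C1s2 gave 23 and 121 UMIs, 6.71-fold apart (4.27 to 10.98), and was at 0.799 and 3.51 CPM in fibroblast-like barcodes. C1ra and C1s1 were lower in library 2 over all kept barcodes, at 169 and 137 CPM and at 174 and 148 CPM. In library 2 all 4 genes had their highest level among the main classes in fibroblast-like barcodes.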
